A study of Mus musculus with 33 samples.

Results

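The 10 genes described here encode secreted or membrane-bound metalloproteinases and their inhibitors: the proteoglycan-cutting proteases Adamts4, Adamts5 and Adamts15, the matrix metalloproteinases Mmp2, Mmp9, Mmp11, Mmp14 and Mmp19, and the tissue inhibitors Timp1 and Timp3. They were taken by symbol from a table of 54347 gene identifiers, and each symbol had 1 identifier. The table holds estimated RNA-seq read counts from mouse ovary in 33 libraries, 9 groups and 3 experiments, made to find ovarian transcripts that depend on follicle-stimulating hormone (FSH) or that follow the estrous cycle. Experiment 1 held 3 libraries each labelled Fshb(-/-), Fshb(+/-) and WT. Fshb encodes the hormone-specific subunit of FSH. Experiment 2 held 4 libraries labelled Fshb(-/-) HFSHB, called the rescue here, and 4 labelled Fshb(-/-), so that both of its groups carry the Fshb mutation and only the rescue carries the HFSHB transgene. Experiment 3 held 4 libraries whose stage label reads KO (anestrus) and 4 each of the cycle stages DE, PE and E, which usually stand for diestrus, proestrus and estrus. All 16 of these carry the genotype label WT, so the KO (anestrus) group rests on its stage label. Neither the labels nor the design text give age, strain, the promoter of the transgene, any pooling of animals, or the cycle stage in experiments 1 and 2, so stage cannot be told apart from genotype there. All titles of experiments 1 and 2 hold the code NS, which is not explained. Whether libraries of a group came from separate animals is not stated, so p-values measure the spread between these libraries, which may be technical in part.

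ADAMTS proteases carry thrombospondin repeats that hold them in the matrix, and ADAMTS4, ADAMTS5 and ADAMTS15 cut large proteoglycans such as versican and aggrecan. Matrix metalloproteinases (MMPs) cut collagens, gelatin and other matrix and cell-surface proteins; both families are made as inactive pro-enzymes, so a transcript level is not an activity. TIMP proteins block the active site of MMPs, and TIMP3, which binds to the matrix, also blocks ADAMTS4 and ADAMTS5. In the ovary these enzymes are known for remodelling the follicle wall as follicles grow, rupture at ovulation and turn into corpora lutea, and FSH drives the growth of follicles to the preovulatory stage.

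The total count per library was 13587252 to 16931710 in experiment 1, 19633256 to 23700051 in experiment 2 and 10085367 to 15925103 in experiment 3, and every one of the 10 genes had counts in each library, from 11 counts of Mmp9 to 10014 counts of Timp3. Fshb itself went against its labels in experiment 1, with 68 to 82 counts in the libraries labelled Fshb(-/-), 43 to 106 in those labelled Fshb(+/-) and 0 or 1 in those labelled WT. It had 221 to 431 counts in the rescue and 119 to 184 in the Fshb(-/-) libraries of experiment 2. In experiment 3 it had 90 to 114 counts in KO (anestrus), 60 to 198 in DE, 0 to 51 in PE and 0 to 170 in E. It thus did not set KO (anestrus) apart from DE or E. Every direction below therefore rests on the labels as given. Markers of granulosa cells (8 genes, none at 0 in any library) summed to 1241 to 5499 counts-per-million (CPM) over all groups, so defining cells of the labelled tissue were present throughout. Libraries labelled Fshb(-/-) or KO (anestrus) had lower sums of the 8 luteal markers than all others (2057 to 3091 CPM against 3276 to 18700) and lower sums of the 7 endothelial markers (299 to 366 against 394 to 615), while their sums of the 6 oocyte markers were higher (296 to 456 against 56.6 to 264). Theca and interstitial markers (7 genes) summed to 2791 to 3588 CPM in them and 1125 to 3062 CPM in the others. Lum, 1 of these 7, went the other way in experiments 1 and 2 (see the closing section), so the sum does not describe every marker. In experiment 2 the rescue and Fshb(-/-) libraries also differed without overlap in the sums of granulosa (3006 to 4026 against 2155 to 2417 CPM), surface epithelium (7 markers, 113 to 187 against 211 to 301 CPM) and smooth muscle markers (5 markers, 659 to 853 against 435 to 617 CPM). Each result below on these groups stands beside those shifts, and their part in it was not tested. In bulk RNA, fewer cells of a type and less RNA per cell cannot be told apart. Transcripts of oviduct epithelium (7 markers) were abundant in 8 of the 12 stage libraries of experiment 3. This bears below on comparisons between stages and of KO (anestrus) with stages. Sums were 7.63 to 48.7 CPM in KO (anestrus), 9.98 to 7447 in DE, 3199 to 5625 in PE and 6.23 to 4752 in E. In KO (anestrus) against PE, oviduct content thus cannot be told apart from group. Surface epithelium sums there were 196 to 239 against 575 to 784 CPM. In experiment 2, oviduct sums were 528 CPM in rescue replicate 2 and 342 and 126 CPM in Fshb(-/-) replicates 3 and 4. The others had 4.66 to 9.10 CPM.

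Per kilobase of exon, transcripts of Mmp11, Mmp2, Timp1, Timp3 and Mmp14 were more abundant than those of the 3 ADAMTS genes, Mmp19 and Mmp9 in these group means. The median over the 9 group means was 65.9 CPM per kilobase for Mmp11, 55.9 for Mmp2, 54.2 for Timp1, 52.5 for Timp3 and 36.8 for Mmp14. It was 5.60 for Adamts5, 4.75 for Mmp19, 2.31 for Adamts4, 1.61 for Mmp9 and 1.31 for Adamts15. The order within each of these sets of 5 is not firm, since the group means of neighbours in it overlapped (31.2 to 60.3 for Timp3 and 22.3 to 109 for Timp1, for example).

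**Figure D1:**
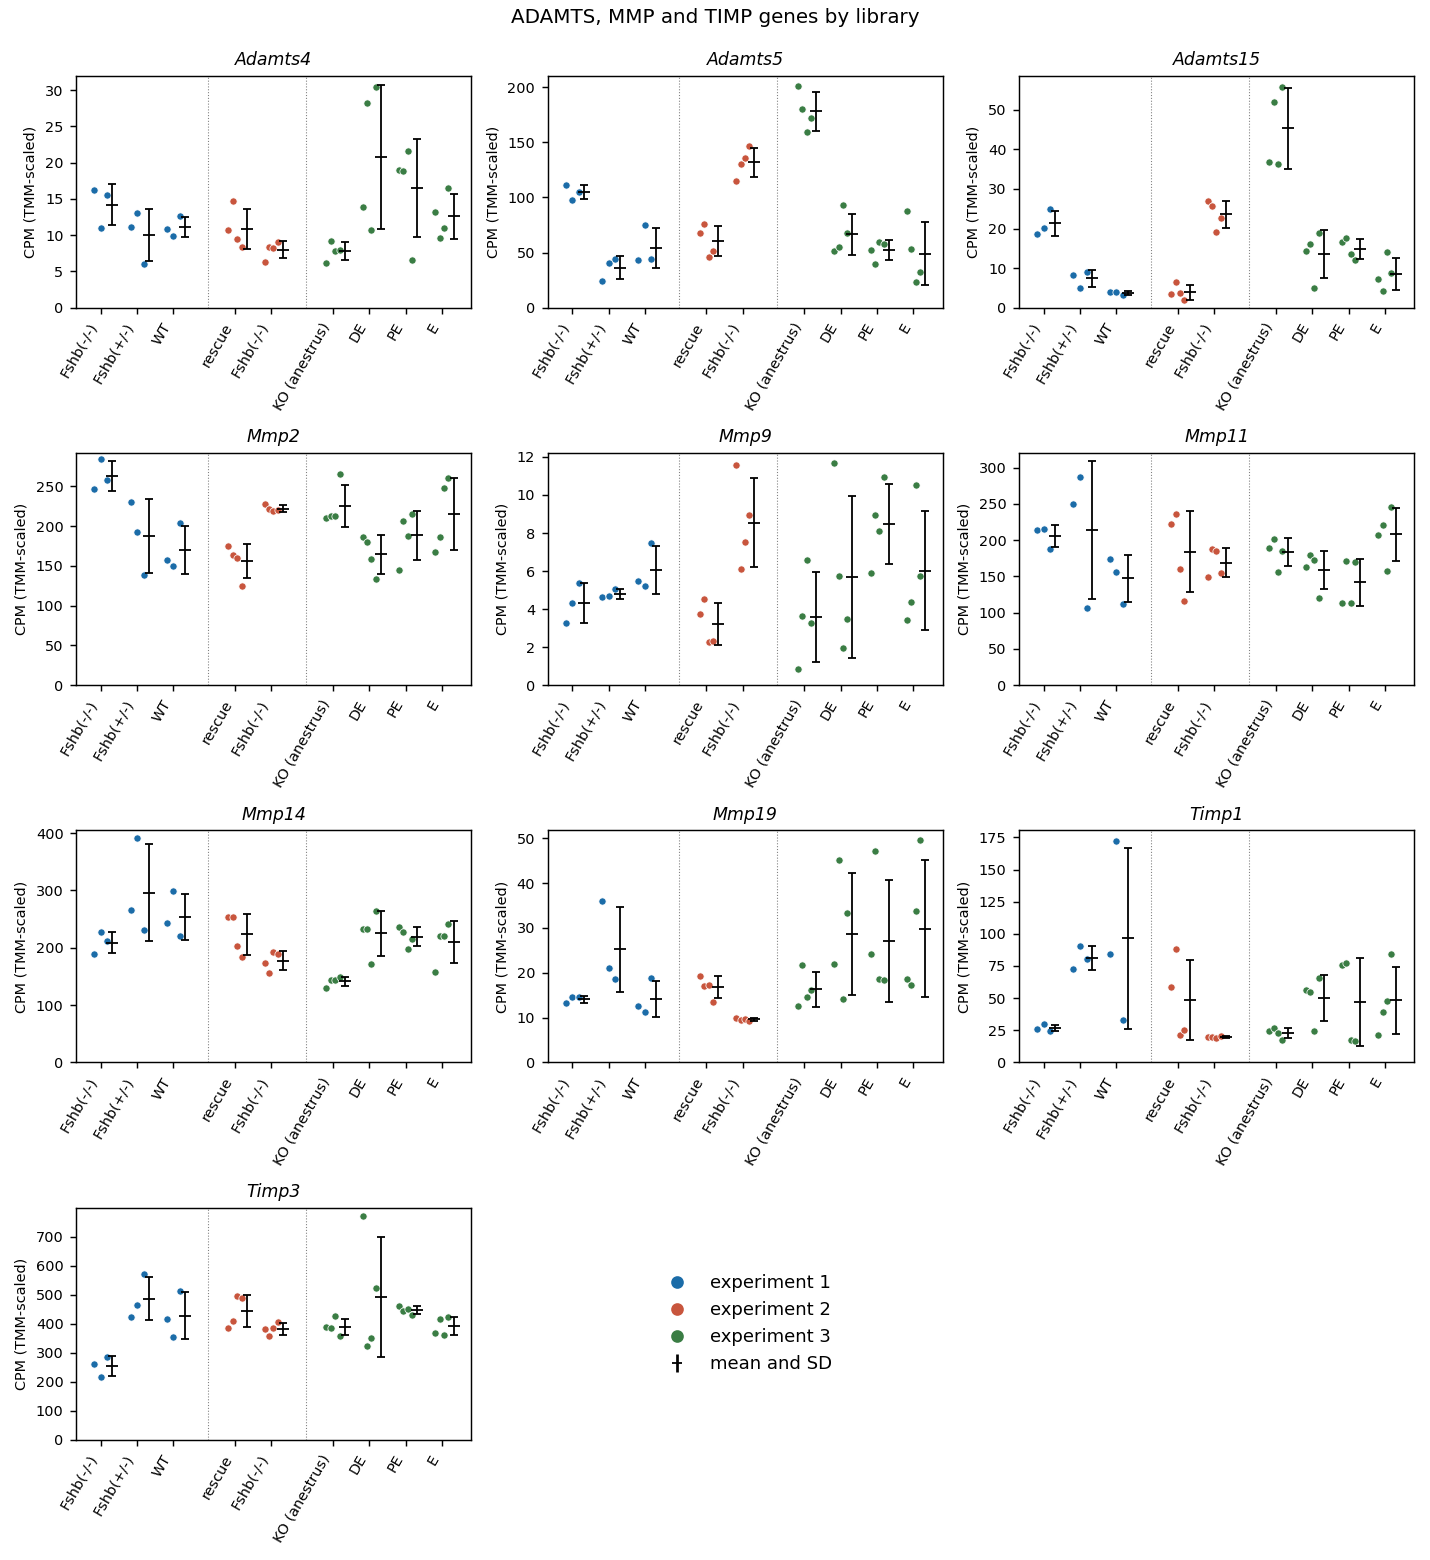
Level of each of the 10 genes (vertical axes, CPM with TMM-scaled library sizes) in every library, by group (horizontal axes); points are libraries, coloured by experiment, and bars show the mean and SD. Adamts5 and Adamts15 stand above the other groups of their experiment in all 11 libraries labelled Fshb(-/-) or KO (anestrus), at 98.1 CPM or more for Adamts5 and 18.7 CPM or more for Adamts15.

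Tests were made with edgeR's quasi-likelihood test, with p adjusted by Benjamini-Hochberg over all genes tested in the experiment; a gene is called where the adjusted p is under 0.05, and log2 fold changes are given with their SE. Against WT, libraries labelled Fshb(-/-) had 1 of the 10 genes called higher and 1 called lower, where 7.87% of 17223 genes tested were called (4.53% higher, 3.34% lower). Against Fshb(+/-), 2 were called higher and 1 lower, where 17% of genes were called (9.1% higher, 7.9% lower). In the rescue against Fshb(-/-), 1 was called higher and 4 lower, where 31.9% of 16871 genes were called (15.8% higher, 16.2% lower). KO (anestrus) libraries had 2 called higher and 2 lower against DE (25.1% of 16944 genes called, 11.6% higher and 13.5% lower), 2 higher and 2 lower against PE (33.8% called, 16.3% higher and 17.5% lower), and 2 higher and 1 lower against E (18% called, 8.98% higher and 8.98% lower). Fshb(+/-) against WT gave no call among the 10, where 0.0871% of genes were called. Of the 10, 2 (Adamts15 and Mmp19) had an unadjusted p under 0.05 in edgeR, and DESeq2 called 1, Adamts15. In the 6 comparisons other than Fshb(+/-) against WT the median absolute log2 fold change of the 10 genes was 0.56 to 0.89, against 0.23 to 0.32 over all genes tested. Groups did not overlap for 6, 7, 6, 5, 4 and 4 of the 10 genes in those comparisons, against 35.3%, 37.7%, 34.3%, 25.4%, 41.5% and 29.8% of all genes. For Fshb(+/-) against WT they did not overlap for 2 of the 10, against 15.3% of all genes. The 10 genes were chosen with earlier results of these data known. Their distance from all genes in these measures may follow from that choice and is no result about the set. The comparisons of Fshb(-/-) with WT and with Fshb(+/-) share the Fshb(-/-) libraries, and the 3 of experiment 3 share the KO (anestrus) libraries, so their results are not independent.

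**Figure D2:**
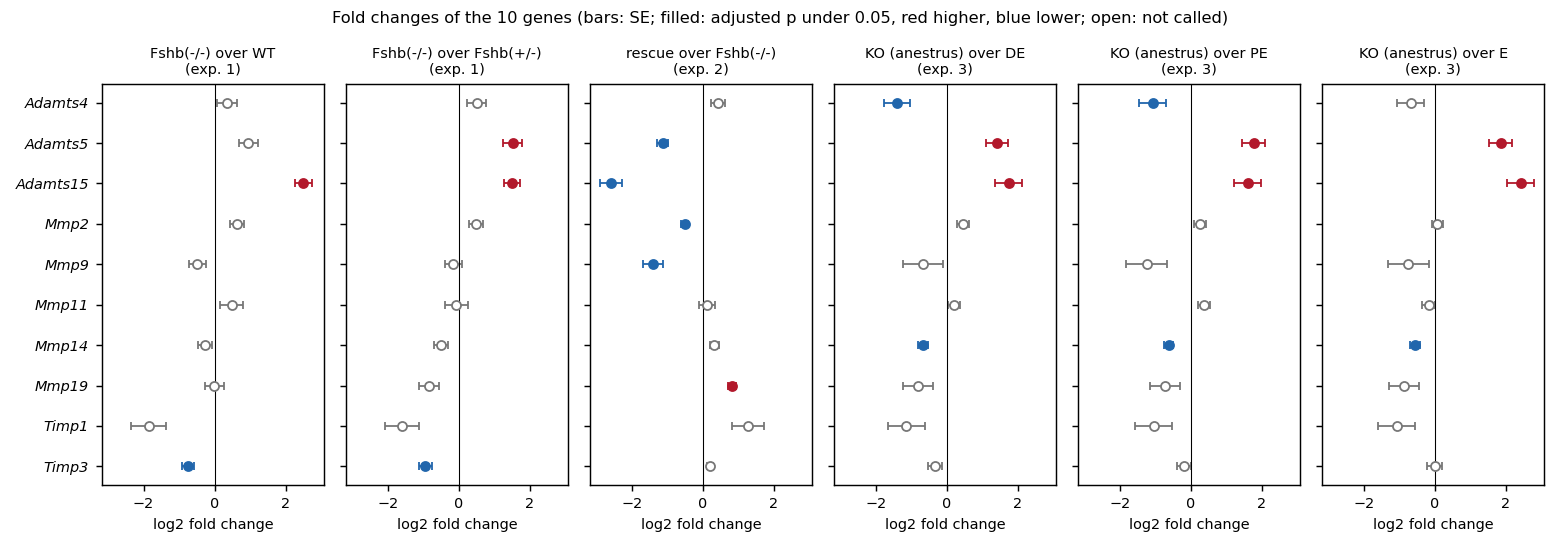
Log2 fold changes (horizontal axes) of the 10 genes in 6 comparisons, 1 panel each, with bars for the SE; filled points are called (red higher, blue lower) and open points are not. Adamts15 is called in all 6 panels, from -2.59 in the rescue to 2.50 in Fshb(-/-) against WT, and Mmp14 is called in the 3 panels of KO (anestrus), from -0.67 to -0.57.

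Adamts15 (ENSMUSG00000033453.8, chromosome 9, 30899155 to 30922452 on the minus strand, GRCm38), which encodes a protease of versican and aggrecan, was higher in the libraries labelled Fshb(-/-) or KO (anestrus) in all 3 experiments. In experiment 1 it was at 18.7, 20.2 and 24.95 CPM in the Fshb(-/-) libraries, 8.38, 5.05 and 9.04 CPM in the Fshb(+/-) libraries and 3.996, 4.08 and 3.21 CPM in the WT libraries. No group overlapped another: the mutant libraries were highest and the heterozygous ones lay between them and WT. The fitted level in the mutant was 5.651-fold that of WT (means 21.3 ± 3.26 against 3.76 ± 0.481 CPM, SD, n = 3 each), or 2.50 ± 0.24 on the log2 scale (edgeR adjusted p = 0.001). Against Fshb(+/-) the log2 fold change was 1.51 ± 0.23 (edgeR adjusted p = 0.0036), and Fshb(+/-) against WT gave 0.99 ± 0.24 (edgeR adjusted p = 0.2), not called; DESeq2 called the last at an adjusted p of 0.021. One of the 3 heterozygous libraries, replicate 3, also carried oviduct transcripts (marker sum 1360 CPM, against 10.4 and 51.7 in the other two).

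In the presence of the HFSHB transgene Adamts15 fell. Rescue libraries had 3.59, 6.38, 3.65 and 1.97 CPM, and the Fshb(-/-) libraries of experiment 2 had 26.96, 25.6, 19.2 and 22.6 CPM. Rescue replicate 2, at 6.38 CPM, also had the highest oviduct marker sum of the rescue libraries (528 CPM). The groups were far apart, with every rescue library below every mutant library, and the log2 fold change was -2.59 ± 0.30 (edgeR adjusted p = 0.00052). In experiment 3 the KO (anestrus) libraries had 36.9, 52.1, 36.3 and 55.9 CPM. DE libraries had 14.4, 16.2, 4.88 and 18.9 CPM, PE libraries had 16.5, 17.5, 13.6 and 12.1 CPM and E libraries had 7.19, 4.14, 14.1 and 8.702 CPM. All 4 KO (anestrus) libraries exceeded all 12 stage libraries, with log2 fold changes of 1.74 ± 0.38 against DE, 1.60 ± 0.38 against PE and 2.41 ± 0.39 against E (edgeR adjusted p = 0.006, 0.0068 and 0.00091).

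Adamts5 (ENSMUSG00000022894.6, chromosome 16, 85856173 to 85901828 on the minus strand), which encodes a major aggrecanase that also cuts versican, was, like Adamts15, highest in the libraries labelled Fshb(-/-) or KO (anestrus) of each experiment. Its level was 111, 98.1 and 105 CPM in Fshb(-/-), 24.2, 40.7 and 44.2 CPM in Fshb(+/-) and 42.9, 75.4 and 44.01 CPM in WT libraries of experiment 1. The mutant libraries stood above both other groups, which overlapped each other. Relative to Fshb(+/-) it rose with a log2 fold change of 1.53 ± 0.27 (edgeR adjusted p = 0.0075). Against WT the difference was 0.95 ± 0.27 and was not called (edgeR adjusted p = 0.064). It was called without WT replicate 2, the WT library highest in Adamts5 (log2 fold change 1.27, edgeR adjusted p = 0.032), and by DESeq2 (adjusted p = 0.0063) and limma voom (adjusted p = 0.02).

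Rescue libraries had 68.1, 75.7, 46.1 and 51.8 CPM of Adamts5, against 115, 131, 136 and 147 CPM in Fshb(-/-) libraries. Every rescue library was below every mutant library, and Adamts5 fell in the rescue by 1.13 on the log2 scale (SE 0.16, edgeR adjusted p = 0.0014). KO (anestrus) libraries had 201, 179.9, 159 and 172 CPM. DE libraries had 51.7, 55.5, 92.9 and 67.4 CPM, PE libraries 52.5, 39.5, 59.6 and 57.8 CPM and E libraries 87.7, 52.9, 23.2 and 32.5 CPM. No stage library reached the KO (anestrus) range, although the E libraries differed 3.79-fold among themselves, from 23.2 to 87.7 CPM. Adamts5 was higher in KO (anestrus) by 1.41 ± 0.32 against DE, 1.77 ± 0.32 against PE and 1.86 ± 0.32 against E on the log2 scale (edgeR adjusted p = 0.0075, 0.0018 and 0.0015).

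Adamts4 (ENSMUSG00000006403.13, chromosome 1, 171250421 to 171260637 on the plus strand), the third aggrecanase of the set, did not share this pattern. Experiment 1 gave 16.2, 10.9 and 15.6 CPM in Fshb(-/-), 11.1, 13.01 and 5.98 CPM in Fshb(+/-) and 10.9, 9.82 and 12.6 CPM in WT libraries, and the 3 groups overlapped (log2 fold change of Fshb(-/-) against WT 0.36 ± 0.28, edgeR adjusted p = 0.46). Rescue libraries had 10.7, 14.7, 9.41 and 8.396 CPM, against 6.36, 8.32, 8.21 and 9.097 CPM in Fshb(-/-) libraries, which also overlapped (log2 difference 0.43 ± 0.19, edgeR adjusted p = 0.11). In experiment 3 the direction was opposite to that of Adamts5 and Adamts15. Levels in KO (anestrus) libraries were 6.19, 9.26, 7.75 and 8.01 CPM, in DE libraries 13.9, 28.2, 10.7 and 30.4 CPM, in PE libraries 19.03, 18.9, 21.6 and 6.58 CPM and in E libraries 13.2, 9.56, 10.99 and 16.6 CPM. KO (anestrus) lay below all DE and E libraries, while 1 PE library fell within its range. Adamts4 fell by 1.41 against DE (SE 0.37, edgeR adjusted p = 0.016) and by 1.08 against PE (SE 0.37, edgeR adjusted p = 0.037) on the log2 scale, and against E the difference was -0.69 ± 0.37 (edgeR adjusted p = 0.2), which a fit of those groups alone called (adjusted p = 0.027). The call against DE ended without DE replicate 4 (adjusted p = 0.051), and that against PE ended without any of the 7 libraries other than PE replicate 4, with adjusted p up to 0.081. Among stage libraries, its median was 18.96 CPM in the 8 with oviduct transcripts and 11.95 CPM in the 4 without. These sets overlapped (6.58 to 30.4 against 9.56 to 16.6 CPM). The part of oviduct content in these differences was not tested.

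The gelatinase Mmp2 (ENSMUSG00000031740.8, chromosome 8, 92827291 to 92853420 on the plus strand), which is activated at the cell surface by MMP14, fell in the rescue, the single comparison in which edgeR called it. Its level was 247, 284 and 258 CPM in Fshb(-/-), 231, 192 and 138 CPM in Fshb(+/-) and 157, 149 and 204 CPM in WT libraries. The mutant libraries did not overlap either group, but edgeR called neither difference (log2 0.63 ± 0.19 against WT, edgeR adjusted p = 0.077; 0.49 ± 0.19 against Fshb(+/-), edgeR adjusted p = 0.11). DESeq2 (adjusted p = 0.016), limma voom (0.0053) and edgeR on the compared groups alone (0.03) called the difference from WT, and edgeR without Fshb(+/-) replicate 1 called that from Fshb(+/-) (0.048). Rescue libraries had 175, 164, 160.2 and 125 CPM, against 228, 221, 219.5 and 220 CPM in Fshb(-/-) libraries. Here too the groups did not overlap, and Mmp2 fell in the rescue by 0.51 on the log2 scale (SE 0.09, edgeR adjusted p = 0.0032). KO (anestrus) libraries had 210.1, 213, 213 and 265 CPM, above all DE libraries (187, 180.3, 159 and 133 CPM) and overlapping the PE range of 145 to 215 and the E range of 167 to 259.9 CPM. None of the 3 differences was called by edgeR (log2 0.45 ± 0.16, 0.26 ± 0.16 and 0.07 ± 0.16 against DE, PE and E; edgeR adjusted p = 0.052, 0.23 and 0.81). That from DE was called by DESeq2 (adjusted p = 0.032), limma voom (0.037) and edgeR on those groups alone (0.044).

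Mmp9 (ENSMUSG00000017737.2, chromosome 2, 164940780 to 164955850 on the plus strand), the other gelatinase, which neutrophils store in granules, was called by edgeR in a single comparison. Rescue libraries had 3.73, 4.55, 2.27 and 2.33 CPM, against 11.6, 6.09, 7.53 and 8.95 CPM in Fshb(-/-) libraries. The groups did not overlap, and Mmp9 fell in the rescue by 1.40 on the log2 scale (SE 0.28, edgeR adjusted p = 0.0053). The 8 neutrophil markers, with Mmp8 but no member, summed to 3.04 to 5.71 CPM in the rescue and 2.01 to 3.24 CPM in Fshb(-/-). Up to 5 of the 8 were at 0 in a library. This sum ran higher, with overlap, where Mmp9 ran lower. In experiment 1 the order of means was the reverse of that in experiment 2, with the mutant below WT: Fshb(-/-) libraries had 3.27, 4.32 and 5.35 CPM, Fshb(+/-) libraries 4.65, 4.66 and 5.07 CPM and WT libraries 5.45, 5.19 and 7.48 CPM. The mutant and WT ranges met at their edges, and the difference was not called (log2 -0.49 ± 0.24, edgeR adjusted p = 0.25). Within experiment 3, KO (anestrus) libraries ran from 0.831 to 6.59 CPM, DE from 1.95 to 11.7, PE from 5.88 to 10.9 and E from 3.42 to 10.5, with overlap throughout and no call by edgeR (adjusted p = 0.41, 0.11 and 0.38). Limma voom called it lower in KO (anestrus) against PE (log2 fold change -1.51, adjusted p = 0.015).

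Mmp11 (ENSMUSG00000000901.17, chromosome 10, 75923222 to 75936496 on the minus strand), or stromelysin 3, an MMP that leaves its cell already activated, was among the most abundant per kilobase and was called by edgeR in none of the 10 comparisons between groups. Fshb(-/-) libraries had 213, 215 and 188 CPM, above the WT libraries at 174, 157 and 112 CPM, while the Fshb(+/-) libraries spread over both ranges (249.7, 287 and 107 CPM). The lowest heterozygous library, replicate 3, is the one with oviduct transcripts. The log2 fold change of Fshb(-/-) against WT was 0.48 ± 0.33 (edgeR adjusted p = 0.4), and the rescue at 116 to 237 CPM overlapped Fshb(-/-) at 149 to 188 CPM (0.12 ± 0.22, edgeR adjusted p = 0.71). In experiment 3 its range was 156 to 202 CPM in KO (anestrus), 120.3 to 179.6 CPM in DE, 113 to 171 CPM in PE and 158 to 245 CPM in E. All of these ranges overlapped, and KO (anestrus) differed from DE, PE and E by 0.21 ± 0.17, 0.37 ± 0.17 and -0.18 ± 0.17 on the log2 scale (edgeR adjusted p = 0.4, 0.11 and 0.49). Limma voom called it higher in KO (anestrus) against PE (log2 fold change 0.53, adjusted p = 0.0049). Exons of Mmp11 share 155 bases (5.58%) with Chchd10 on the opposite strand.

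Mmp14 (ENSMUSG00000000957.11, chromosome 14, 54431612 to 54445364 on the plus strand) encodes a membrane-anchored MMP that cuts collagen next to the cell and, with TIMP2, activates pro-MMP2. In KO (anestrus) libraries it was at 130.4, 144, 144 and 149 CPM. DE libraries had 233, 233, 171 and 264 CPM, PE libraries 236, 227, 198 and 216 CPM and E libraries 158, 219.7, 221 and 242 CPM. All KO (anestrus) libraries were below all stage libraries, and Mmp14 fell by 0.67 against DE, by 0.63 against PE and by 0.57 against E on the log2 scale (SE 0.13 each; edgeR adjusted p = 0.004, 0.004 and 0.0099). In experiments 1 and 2 the mean was again lower in the libraries labelled Fshb(-/-), but edgeR called no difference. Fshb(-/-) libraries had 189.7, 227 and 211 CPM, Fshb(+/-) libraries 266, 392 and 230.3 CPM and WT libraries 243, 298 and 221 CPM (log2 -0.28 ± 0.20 against WT, edgeR adjusted p = 0.42). The mutant libraries lay below all Fshb(+/-) libraries (log2 -0.50 ± 0.20, edgeR adjusted p = 0.11), a difference that limma voom called (adjusted p = 0.027). Rescue libraries had 253, 253, 203 and 183 CPM, against 173, 155, 193 and 189 CPM in Fshb(-/-) libraries (log2 0.33 ± 0.12, edgeR adjusted p = 0.063), and these overlapped. DESeq2 called this difference (adjusted p = 0.022), as did edgeR without rescue replicate 4 (0.019).

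Mmp19 (ENSMUSG00000025355.7, chromosome 10, 128790910 to 128800824 on the plus strand), which cuts basement membrane components, rose in the rescue. Its level was 19.3, 17.1, 17.2 and 13.6 CPM in the rescue, against 9.97, 9.52, 9.64 and 9.15 CPM in Fshb(-/-) libraries. The mutant libraries lay within 1 CPM of each other and below all rescue libraries, and the log2 fold change was 0.81 ± 0.11 (edgeR adjusted p = 0.00085). In experiment 1 the Fshb(-/-) libraries (13.2, 14.5 and 14.6 CPM) lay below the Fshb(+/-) libraries (36.1, 20.98 and 18.5 CPM) and within the range of the WT libraries (12.5, 11.2 and 18.8 CPM). Neither difference was called by edgeR (log2 -0.84 ± 0.27 against Fshb(+/-), edgeR adjusted p = 0.064; -0.01 ± 0.27 against WT, edgeR adjusted p = 0.99). The difference from Fshb(+/-) was called by DESeq2 (adjusted p = 0.022) and limma voom (0.032) with all libraries, and by edgeR without Fshb(+/-) replicate 3 (log2 fold change -1.02, adjusted p = 0.04). Stage libraries spread from 14.1 to 49.7 CPM and KO (anestrus) libraries from 12.5 to 21.7 CPM, with no call by edgeR (adjusted p = 0.16, 0.19 and 0.16). Limma voom called KO (anestrus) lower against DE (adjusted p = 0.048). Exons of Mmp19 share 789 bases (22.3%) with Tmem198b on the opposite strand, and the strand of counting is not given, so some of its reads may belong to that gene.

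Timp1 (ENSMUSG00000001131.11, chromosome X, 20870166 to 20874735 on the plus strand), a secreted inhibitor of most MMPs, had low levels in all libraries labelled Fshb(-/-) or KO (anestrus). Across the 11 libraries labelled Fshb(-/-) or KO (anestrus) it ran from 17.2 to 29.6 CPM with a median of 22.7. Fshb(-/-) libraries of experiment 1 had 26.4, 29.6 and 24.5 CPM, Fshb(+/-) libraries 72.3, 90.6 and 80.1 CPM and WT libraries 84.5, 172 and 33.3 CPM. The mutant libraries were below all others, but the 3 WT libraries differed 5.19-fold among themselves, and the difference of -1.85 ± 0.49 on the log2 scale was not called by edgeR (adjusted p = 0.06). It was called without WT replicate 3 (log2 fold change -2.25, edgeR adjusted p = 0.0052), a library that also had a luteal marker sum of 4202 CPM against 11890 and 11640 in the other two. With all libraries it was called by DESeq2 (adjusted p = 0.00044) and limma voom (adjusted p = 0.0085). The difference from Fshb(+/-) was -1.60 ± 0.49 (edgeR adjusted p = 0.061), not called by edgeR, with the groups not overlapping. DESeq2 (adjusted p = 0.0019), limma voom (0.028) and edgeR on the compared groups alone (0.00082) called it.

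Rescue libraries had 58.7, 88.1, 21.4 and 25.2 CPM of Timp1, against 19.8, 20, 19.1 and 20.4 CPM in Fshb(-/-) libraries. All 4 mutant libraries lay within 2 CPM of each other and below the rescue, of which replicates 1 and 2 were far above and replicates 3 and 4 just above them. The log2 difference of 1.29 ± 0.45 was not called by edgeR (adjusted p = 0.066) but was by DESeq2 (adjusted p = 0.02), and by edgeR without rescue replicate 3 (adjusted p = 0.031). Luteal marker sums split the rescue libraries the same way in the opposite sense, at 5944 and 7032 CPM in replicates 1 and 2 and 16020 and 18700 CPM in replicates 3 and 4; their part in the spread was not tested. KO (anestrus) libraries had 24.4, 26.6, 22.7 and 17.2 CPM, DE libraries 56.5, 54.9, 24.5 and 65.6 CPM, PE libraries 76.1, 77.2, 17.2 and 16.8 CPM and E libraries 21.6, 39.2, 47.9 and 83.97 CPM. Of the 12 stage libraries, 8 exceeded 30 CPM and the other 4 were within or near the KO (anestrus) range, and edgeR called no difference (adjusted p = 0.12, 0.14 and 0.16). A fit of KO (anestrus) and DE alone called theirs (adjusted p = 0.023).

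Timp3 (ENSMUSG00000020044.13, chromosome 10, 86300372 to 86349506 on the plus strand), the matrix-bound inhibitor that also acts on ADAMTS4 and ADAMTS5, fell in the Fshb(-/-) libraries of experiment 1. They had 262, 217 and 284 CPM, Fshb(+/-) libraries 425, 464 and 569.6 CPM and WT libraries 417, 352 and 514 CPM. The mutant libraries were below both other groups without overlap. Timp3 fell by 0.75 against WT (SE 0.18, edgeR adjusted p = 0.036) and by 0.94 against Fshb(+/-) on the log2 scale (SE 0.18, edgeR adjusted p = 0.0087). The call against WT ended without any of 5 of the 6 libraries, all but WT replicate 2, with adjusted p up to 0.11. In experiment 2 the groups overlapped, with 384, 408, 494 and 489 CPM in the rescue and 380.2, 357, 385 and 406 CPM in Fshb(-/-) libraries (log2 0.22 ± 0.09, edgeR adjusted p = 0.088; 0.025 without rescue replicate 1). KO (anestrus) libraries had 356 to 425 CPM, DE 321 to 771 CPM, PE 430.0 to 461 CPM and E 359 to 423 CPM, the PE libraries alone lying wholly above KO (anestrus), and no difference was called (edgeR adjusted p = 0.24, 0.48 and 0.98). Exons of Timp3 share 1733 bases (21.3%) with Syn3 on the opposite strand, which had 807 counts over all libraries against 212457 for Timp3.

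Whether the rescue libraries differed from Fshb(-/-) as WT libraries do was tested as a difference between the 2 effects, in a fit over experiments 1 and 2. None of the 10 genes was called, where 0.153% of 18255 genes were called (0.0493% higher, 0.104% lower). An unadjusted p was under 0.05 for 4 of the 10: Mmp9, Adamts4, Mmp19 and Timp3. The 2 effects differed in log2 by 0.783 ± 0.345 for Adamts4, 0.795 ± 0.298 for Mmp19 and -0.541 ± 0.193 for Timp3. Their edgeR adjusted p was 0.72, 0.59 and 0.55. For Adamts15 the 2 effects differed by -0.10 ± 0.41 on the log2 scale (edgeR adjusted p = 0.99), for Adamts5 by -0.18 ± 0.32 (edgeR adjusted p = 0.96), and for Mmp2 by 0.11 ± 0.21 (edgeR adjusted p = 0.96). Mmp9 had the largest difference among the 10, -1.90 ± 0.39 (edgeR adjusted p = 0.081): its rescue effect was -1.40, while in experiment 1 the WT mean was above the Fshb(-/-) mean. That difference was called by edgeR without rescue replicate 2 (adjusted p = 0.048) and by DESeq2 (adjusted p = 0.0016). Rescue replicate 2 had an oviduct marker sum of 528 CPM, and the part of this in the difference was not tested.

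No member was called between cycle stages, where 0% of the 16944 genes tested were called in each of the 3 comparisons by edgeR. Groups did not overlap for 0 of the 10 genes in PE against DE (0.944% of all genes), for 1, Timp3, in E against PE (8.88%) and for 0 in E against DE (2.94%). Among the 10 genes, an unadjusted p was under 0.05 for none in PE against DE, for 2 in E against PE (Adamts15 and Mmp11) and for 2 in E against DE (Mmp2 and Mmp11). DESeq2 called none of the 10, and limma voom called Mmp11 in E against PE (log2 fold change 0.75, adjusted p = 0.012), as did edgeR without E replicate 3 (0.66, adjusted p = 0.024). The stage libraries differed in oviduct content. Marker sums were 3199 to 7447 CPM in all 4 PE libraries, DE replicates 1, 2 and 4 and E replicate 3, while they were 6.23 to 9.98 CPM in DE replicate 3 and E replicates 1, 2 and 4. KO (anestrus) libraries had 7.63 to 48.7 CPM. No PE library lacked oviduct transcripts. PE against the 3 DE libraries that carry them (without DE replicate 3) gave 0 calls among the 10 genes and 0 among all genes tested. This is therefore no result about the 10 genes.

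**Figure D3:**
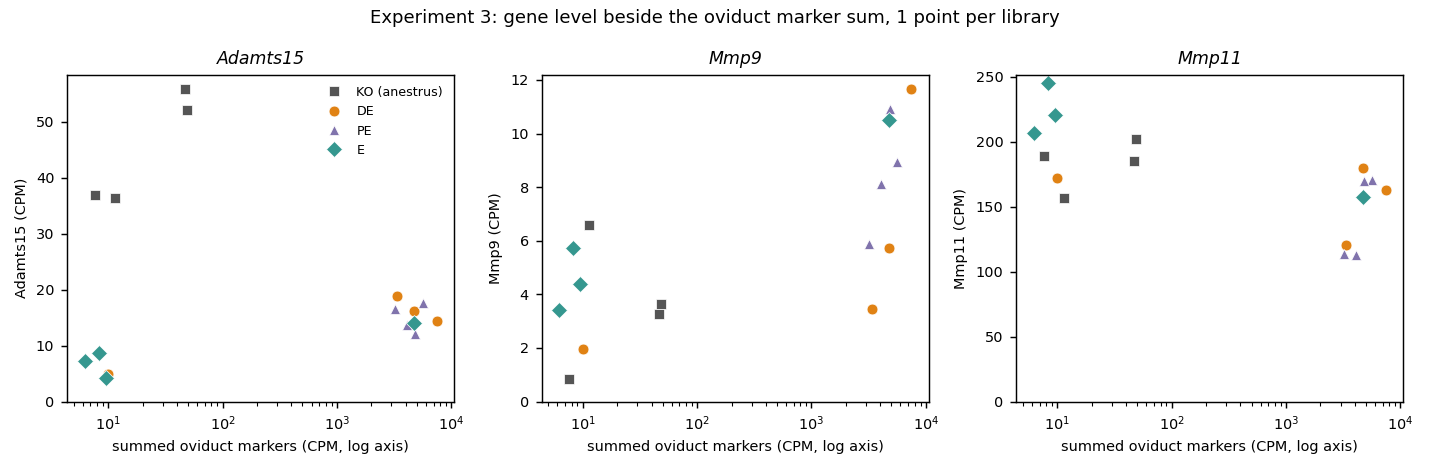
Level of Adamts15, Mmp9 and Mmp11 (vertical axes, CPM) against the summed oviduct markers (horizontal axes, CPM, log scale) in the 16 libraries of experiment 3; symbols mark the group. Among stage libraries, Adamts15 was 12.1 to 18.9 CPM in the 8 with sums of 3199 CPM or more and 4.14 to 8.70 CPM in the other 4.

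Adamts15 levels did not overlap between stage libraries with and without oviduct transcripts. They were at 12.1 to 18.9 CPM in the 8 libraries with oviduct transcripts and at 4.14 to 8.70 CPM in the 4 without, and the 4 KO (anestrus) libraries, at 36.3 to 55.9 CPM, exceeded both sets. Mmp9 had a median of 8.53 CPM in the 8 and 3.91 in the 4, with overlap (3.46 to 11.7 against 1.95 to 5.74 CPM). Mmp11 had the opposite order, 113 to 179.6 CPM in the 8 and 172 to 245 CPM in the 4, with overlap. Sums of ovarian surface epithelium markers (575 to 795 CPM against 165 to 239.9) and of smooth muscle markers (1597 to 3249 CPM against 648 to 1369) were also higher in the 8, and the neutrophil sums were 5.59 to 26.0 CPM in the 8 and 2.28 to 3.61 CPM in the 4. Mmp8, itself an MMP gene, is 1 of the neutrophil markers. It ran from 3.43 to 8.22 CPM in PE, where the neutrophil sums were 9.15 to 14.3 CPM. In DE replicate 1, with a sum of 15.35 CPM, the markers S100a8, S100a9 and Ngp were at 0. The neutrophil sum is thus a weak measure of neutrophils. The part of these cells in the 3 genes was not tested. When DE replicate 3 and E replicate 3 were both left out, every DE and PE library and no E library carried oviduct transcripts. In that set Adamts15 was lower in E against PE (log2 fold change -1.18, edgeR adjusted p = 0.0039) and against DE (-1.32, edgeR adjusted p = 0.0026), Mmp11 was higher in E against PE (0.66, edgeR adjusted p = 0.018), and 2656 and 2750 genes in all were called in those 2 comparisons. Against the 3 E libraries without oviduct transcripts, Adamts15 in KO (anestrus) had a log2 fold change of 2.73 (edgeR adjusted p = 0.00051), and against the 3 DE libraries with them it had 1.41 (edgeR adjusted p = 0.0044).

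Relatives of these genes were counted in lists drawn up by gene family. Of all genes tested, 7.87% were called in Fshb(-/-) against WT, 17% against Fshb(+/-) and 31.9% in the rescue. In KO (anestrus) against DE, PE and E the shares were 25.1%, 33.8% and 18%. The counts in these lists, here and below, stand beside those shares. Of 16 other ADAMTS proteases, 13 or 14 passed the filter on low counts. None was called in Fshb(-/-) against WT, 2 were higher and 1 lower against Fshb(+/-), and 4 were higher and 5 lower in the rescue. KO (anestrus) had 1 lower against DE, 2 higher and 1 lower against PE and 2 lower against E. Adamts6 was higher in Fshb(-/-) against Fshb(+/-) (1.04 ± 0.14, edgeR adjusted p = 0.0019) and lower in the rescue (-0.38 ± 0.08, edgeR adjusted p = 0.0092), the direction of Adamts5 and Adamts15. Adamts7, which cuts cartilage oligomeric matrix protein, was lower in KO (anestrus) against each stage (-0.85 ± 0.15, -0.85 ± 0.15 and -1.20 ± 0.15 against DE, PE and E). Adamts19 was lower in the rescue (-0.60 ± 0.09, edgeR adjusted p = 0.0011). Adamts1, the ovulation-linked versican protease, was called in none of the comparisons; in E libraries it ran from 55.9 to 378 CPM. Among ADAMTS-like proteins, which lack the protease domain, Thsd4 was lower in Fshb(-/-) against WT (-1.43 ± 0.21) and in KO (anestrus) against each stage (-1.04 ± 0.25, -1.37 ± 0.25 and -1.07 ± 0.25) and higher in the rescue (1.35 ± 0.15). Of the 6 or 7 ADAMTS-like genes tested, 1 was higher and 1 lower in Fshb(-/-) against WT and likewise against Fshb(+/-), 1 was higher and 2 lower in the rescue, and 3, 3 and 1 were lower in KO (anestrus) against DE, PE and E. Adamtsl3 reached 0.584 CPM at most in KO (anestrus) and 2.18 to 4.75 CPM in PE. It could thus pass the filter through stage libraries alone.

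Among the other MMP genes, Mmp15 and Mmp12 were called in all 6 comparisons with Fshb(-/-) or KO (anestrus) libraries. Of 18 listed, 9 were tested in experiments 1 and 2 and 13 in experiment 3. In experiment 3 a gene could pass the filter on low counts through stage libraries alone. Mmp8, for example, averaged 6.55 CPM in PE and 0.0951 CPM in KO (anestrus), and Mmp3 averaged 2.33 and 0.276 CPM. Such genes could hardly be called higher in KO (anestrus), so the counts of lower genes there are no result about the family. Fshb(-/-) had 1 higher and 2 lower against WT and 4 lower against Fshb(+/-), the rescue had 4 higher and 2 lower, and KO (anestrus) had 1 higher and 6 lower against DE, 6 lower against PE, and 1 higher and 3 lower against E. Mmp15, a membrane-anchored relative of Mmp14, averaged 22.3 ± 2.54 CPM in Fshb(-/-), 87.5 ± 28.4 CPM in Fshb(+/-) and 61.02 ± 22.6 CPM in WT (SD, n = 3 each). It was lower in Fshb(-/-), with log2 fold changes of -1.45 ± 0.32 against WT and -1.97 ± 0.32 against Fshb(+/-), higher in the rescue at 1.40 ± 0.19, and lower in KO (anestrus) at -1.49 ± 0.18, -1.26 ± 0.18 and -1.61 ± 0.18 against DE, PE and E (edgeR adjusted p = 0.031, 0.0055, 0.00097, 0.00012, 0.00034 and 5.6e-05). Mmp12, the macrophage elastase, followed the same directions, at 29.9 ± 4.93 CPM in the rescue against 6.64 ± 2.05 CPM in Fshb(-/-) (SD, n = 4 each; log2 fold change 2.17 ± 0.23, edgeR adjusted p = 0.00028). The sum of the 7 macrophage markers there was 135 to 167 CPM in the rescue and 137 to 198 CPM in Fshb(-/-).

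Reck and Timp2 were the other inhibitors that rose in libraries labelled Fshb(-/-) or KO (anestrus). Reck, a membrane-anchored inhibitor of MMP2, MMP9 and MMP14, averaged 58.7 ± 10.4 CPM in the rescue and 135 ± 12.02 CPM in Fshb(-/-) (SD, n = 4 each), and its log2 fold change was -1.20 ± 0.12 (edgeR adjusted p = 0.00023). It was higher in Fshb(-/-) against Fshb(+/-) (1.15 ± 0.18, edgeR adjusted p = 0.004), not called against WT (0.44 ± 0.18, edgeR adjusted p = 0.16), and higher in KO (anestrus) by 1.27 ± 0.13, 1.18 ± 0.13 and 1.34 ± 0.13 against DE, PE and E. Timp2, which inhibits MMPs and also takes part in the activation of pro-MMP2 by MMP14, was called in all 6 of these comparisons: 0.55 ± 0.11 and 0.45 ± 0.11 in Fshb(-/-) against WT and Fshb(+/-), -0.85 ± 0.09 in the rescue, and 0.76 ± 0.15, 0.68 ± 0.15 and 0.97 ± 0.15 in KO (anestrus) against DE, PE and E. Of the 5 listed, 4 or 5 were tested, with 1 higher in Fshb(-/-) against WT, 2 higher and 1 lower against Fshb(+/-), 2 lower in the rescue, and 2 higher and 2 lower in KO (anestrus) against each stage. The lower ones were A2m, a broad protease trap, and Timp4. Timp4 was at 0.917 to 2.79 CPM in KO (anestrus), 1.35 to 31.6 CPM in DE, 20.3 to 37.1 CPM in PE and 2.99 to 33.5 CPM in E. DE and E each held libraries near the KO (anestrus) level. They also each held libraries with and without oviduct transcripts, while all PE libraries carried them. The part of oviduct content in the level of Timp4 was not tested.

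The genes that varied most alike across the 33 libraries were compared on log2(CPM + 1), after the mean of each experiment was taken away. Pearson's r describes these libraries, which share group differences and library make-up. Among the 45 pairs of the 10 genes, Mmp14 and Timp1 had the highest r (0.75), followed by Adamts5 and Adamts15 (0.68); the lowest were Adamts5 with Mmp19 (-0.73) and with Mmp14 (-0.70). Over 11404 genes with a mean of at least 5 CPM in each experiment, those most like Adamts5 were Ccn2 (r 0.94) and Itih2 (0.93), and those most like Adamts15 were Penk (0.93) and Col4a6 (0.93). The closest to Mmp14 were Gpc1 (0.90) and Rnf152 (0.87), to Timp1 Tnfrsf12a (0.85) and Tmem71 (0.80), to Mmp19 Col3a1 (0.89) and Parp3 (0.87), and to Timp3 Gak (0.85) and Hivep2 (0.84). Mmp2 was most like Mpg (0.83) and Glrx (0.83), Mmp9 most like Rps6ka1 (0.80) and Inpp5f (0.77), Adamts4 most like Kctd17 (0.78) and Ercc1 (0.77), and Mmp11 most like Ttll12 (0.76) and Tmem136 (0.74).

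**Figure D4:**
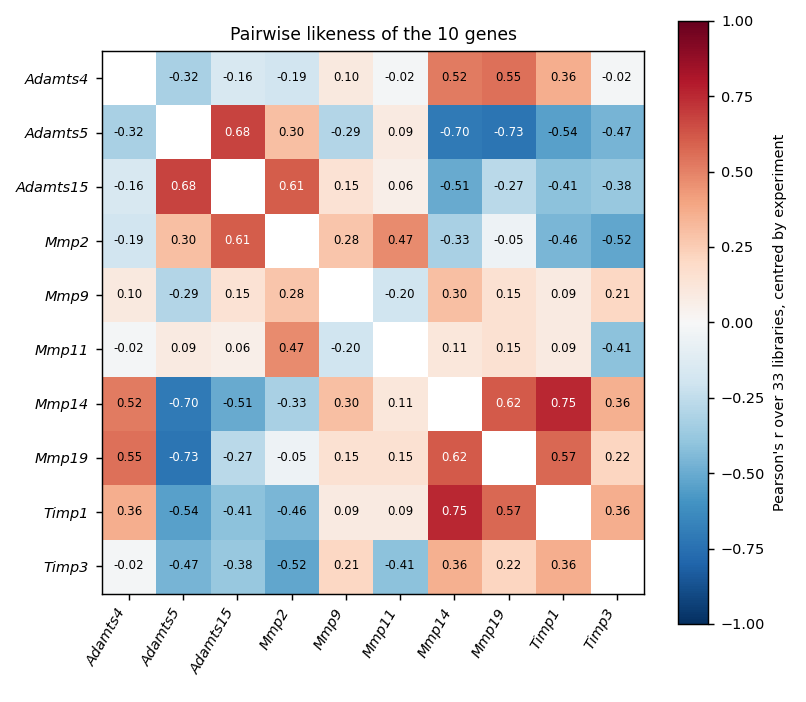
Pearson's r between each pair of the 10 genes (rows and columns) over 33 libraries, on log2(CPM + 1) centred by experiment; red is positive and blue negative. Mmp14, Mmp19 and Timp1 had r of -0.70, -0.73 and -0.54 with Adamts5 and of -0.51, -0.27 and -0.41 with Adamts15.

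Because Mmp14 and Timp1 varied most alike, the 250 bases before their RefSeq start sites (GRCm38.p6) are shown, 5′ to 3′ on the plus strand, with GC boxes (GGGCGG, or CCGCCC on the opposite strand) in capitals. The RefSeq promoter table holds 4 of the 10 genes, these 2 with Mmp11 and Timp3. The windows are chr14:54431348-54431597 for Mmp14 and chrX:20869916-20870165 for Timp1.
Mmp14: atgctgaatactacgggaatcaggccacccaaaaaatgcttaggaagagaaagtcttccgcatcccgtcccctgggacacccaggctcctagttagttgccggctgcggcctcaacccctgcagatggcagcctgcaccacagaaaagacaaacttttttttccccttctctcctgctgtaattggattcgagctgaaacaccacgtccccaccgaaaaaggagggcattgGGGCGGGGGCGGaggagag
Timp1: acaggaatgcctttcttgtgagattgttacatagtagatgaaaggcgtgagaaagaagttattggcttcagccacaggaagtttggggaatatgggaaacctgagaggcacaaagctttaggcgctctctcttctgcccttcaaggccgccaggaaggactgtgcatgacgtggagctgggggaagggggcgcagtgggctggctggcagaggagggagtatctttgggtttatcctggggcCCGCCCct
The GC boxes of Mmp14 adjoin each other and begin 19 and 13 bases before the start, and that of Timp1 begins 8 bases before it. Each of the 4 windows holds at least 1 GC box, as do 32.7% of 32851 such windows in the table. The AP-1 site TGANTCA (in 6.7% of windows), its variant TGAGTAA (2.2%) and the cAMP response element TGACGTCA (1.5%), searched on both strands, matched in none of the 4. A match of letters is a description of the window and shows no binding.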

How the data were processed

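Expected counts per gene, which need not be whole, were estimated by the authors with Salmon on GRCm38, per the submitters' processing notes, which also name DESeq2; no source used here gives versions, the annotation or the strand setting. The deposited expected counts (10.5% to 20.1% of values per library not whole) were rounded to whole numbers. Gene symbols came from GENCODE M21, where 54094 of 54347 identifiers matched once version suffixes were dropped; the 253 without a symbol held 0.0055% of counts. Total RNA was column-purified and DNase-treated, and experiment 3 used poly(A) selection and paired-end sequencing, per the labels' protocols.

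Each experiment was fitted on its own with edgeR 4.0.16 (R 4.3.3; TMM factors, genes kept by filterByExpr, robust quasi-likelihood test), and p was adjusted by Benjamini-Hochberg over all genes tested at a threshold of 0.05. CPM used TMM-scaled library sizes, so levels set across experiments rest on separate scalings. The rescue effect minus the WT effect was fitted over experiments 1 and 2 together. All 10 genes were tested in each comparison, but not every fold change is printed. Of the related lists, at most 4 called genes with the smallest p per comparison were named. The genes and lists were chosen with earlier results of these data known. DESeq2 1.42.0, limma 3.58.1 (voom with quality weights), other scaling, other filters (none, or a mean of at least 1 CPM), a replicate block, fits of the compared groups alone and fits without single libraries were tried. The fits were also run on simulated counts, in which libraries varied independently and no difference in tissue content was built in. Replicate pairs (45) differed by more than sampling noise, with a chi-square per degree of freedom of 5.6 to 73.6.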

Additional observations from a re-analysis of the deposited data

Results flagged for a closer look

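Mmp2 had a library far from the others of its group in 2 of the 60 sets of 4 libraries examined over the 10 genes, where chance flags about 1 in 20. Among the Fshb(-/-) libraries of experiment 2, replicate 1 was at 228.1 CPM while the others lay between 219.5 and 220.9 CPM; its gap to the nearest was 0.834 of the whole range, just above Dixon's 95% critical value. Among the KO (anestrus) libraries of experiment 3, replicate 4 was at 265.2 CPM while the others lay between 210.1 and 213.3 CPM, a gap of 0.942 of the range.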

How the results depend on the processing

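Of 21 called results for single genes, 18 kept their call under every alternative run (307 over all called results), and none changed direction. The exceptions were Timp3 in Fshb(-/-) against WT and Adamts4 in KO (anestrus) against DE and against PE, the last also without a filter (adjusted p = 0.063). Of the 10 genes, Fshb(-/-) against WT gave 2 calls, but 5 with DESeq2, 5 with limma voom, 4 with only the groups compared, and 1 to 3 with 1 library left out; over all genes 1355 calls became 2419 with DESeq2, 3589 with voom, between 456 and 597 when any Fshb(-/-) library was left out, and 518 or 526 when WT replicate 1 or 2 was. Fshb(+/-) against WT gave 0, and 1 with DESeq2 (341 genes in all, against 15 with edgeR, 29 with voom and 9 without WT replicate 3). Fshb(-/-) against Fshb(+/-) gave 3, and 5 with DESeq2 and 6 with voom; 2928 calls over all genes became 1362, 1888 and 1563 without Fshb(-/-) replicates 1, 2 and 3. E against PE gave 0, and 1 with voom, 0 to 1 with 1 library left out and 2 without DE replicate 3 and E replicate 3; over all genes the counts were 0, 344 with DESeq2, 2489 with voom, 1847 without E replicate 3 and 279 without PE replicate 2. E against DE gave 0, and 1 without those 2 libraries, with 0 genes in all by edgeR, 10 by DESeq2 and 1039 without E replicate 3. The rescue effect minus the WT effect gave 0, and 1 with DESeq2 and 0 to 1 with 1 library left out; over all genes 28 became 134 with DESeq2 and 63 with voom, and 18 without Fshb(-/-) replicate 4 or rescue replicate 4 of experiment 2. KO (anestrus) against E had 3042 genes called in all, 5288 with voom and 1920 to 2025 without KO (anestrus) replicates 1, 3 or 4; against DE it had 4249, and 2422 to 2808 without any of its own libraries or DE replicates 1 or 4. The cause of these shifts was not tested.

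Replicate numbers did not pair the samples: deviations of same-numbered libraries correlated at -0.13 to 0.12 in experiment 1, -0.18 to 0.11 in experiment 2 and -0.75 to 0.23 in experiment 3, and 3 of 9, 1 of 8 and 2 of 16 libraries correlated best with their own number. With the replicate block, the 10 genes had 2, 0, 3, 5, 4, 3 and 3 calls in Fshb(-/-) against WT, Fshb(+/-) against WT, Fshb(-/-) against Fshb(+/-), the rescue, and KO (anestrus) against DE, PE and E; the call of Adamts4 against PE ended (log2 fold change -1.12, adjusted p = 0.06). Over all genes the block left 7 calls in Fshb(+/-) against WT and 15 in the rescue effect minus the WT effect; it changed no other call of the 10 genes.

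Depth limits Mmp9 most, with as few as 11 counts in a library.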

Other observations

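The matrix that these proteases cut holds proteoglycans bound to hyaluronan. Of 18 proteoglycan and hyaluronan genes, 15 or 16 were tested. Fshb(-/-) had 3 higher and 2 lower against WT and 4 higher and 2 lower against Fshb(+/-), the rescue had 3 higher and 4 lower, and KO (anestrus) had 4 higher and 3 lower against DE, 4 and 2 against PE and 4 and 3 against E. Has2, a hyaluronan synthase, averaged 0.474 ± 0.156 CPM in the rescue and 7.82 ± 0.645 CPM in Fshb(-/-) libraries of experiment 2 (SD, n = 4 each; log2 fold change -4.02 ± 0.23, edgeR adjusted p = 9.1e-06), and was higher in Fshb(-/-) against WT (3.39 ± 0.44, edgeR adjusted p = 0.0038). Hapln1, which links hyaluronan to proteoglycans, was higher in Fshb(-/-) against WT (2.42 ± 0.28) and against Fshb(+/-) (2.07 ± 0.28). Lum, the collagen-binding proteoglycan lumican, had the opposite direction, 1.71 ± 0.08 in the rescue and -1.76 ± 0.23 in Fshb(-/-) against WT, as did the hyaluronan receptor Cd44 in Fshb(-/-) against WT (-1.34 ± 0.16). Vcan, the versican substrate of all 3 ADAMTS proteases described, was called higher in KO (anestrus) against PE (1.11 ± 0.25, edgeR adjusted p = 0.0053), and against WT in experiment 1 the difference was 0.35 ± 0.48 (edgeR adjusted p = 0.7).

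Among 7 tested genes of plasminogen activation, a protease cascade that can activate pro-MMPs, Plau and its receptor Plaur had opposite directions. Plau was lower (-0.999 ± 0.105) and Plaur higher (1.64 ± 0.23) in the rescue, while KO (anestrus) had Plau higher (1.18 ± 0.23, 1.27 ± 0.23 and 0.83 ± 0.23) and Plaur lower (-1.49 ± 0.24, -1.44 ± 0.24 and -1.35 ± 0.24) against DE, PE and E. The list had 1 higher and 0 lower in Fshb(-/-) against WT, 3 higher and 2 lower against Fshb(+/-), 1 higher and 2 lower in the rescue and 2 higher and 1 lower in KO (anestrus) against each stage. Of 4 pro-protein convertases, which cut the pro-peptides of ADAMTS and membrane-type MMPs, none was called in Fshb(-/-) against WT and 1, Furin, was lower against Fshb(+/-) (-0.49 ± 0.12). The rescue had 2 higher and 1, Pcsk6, lower (-0.92 ± 0.10, edgeR adjusted p = 0.00021), and Pcsk6 alone was higher in KO (anestrus) against DE, PE and E (0.98 ± 0.15, 1.04 ± 0.15 and 0.59 ± 0.15).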
